A study of Mus musculus with 4 samples.

Results

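Some regions of the sperm genome gave dense methylated-DNA signal that was called in sperm of a single condition. They were selected on the peak lists of a control and a T2D (type 2 diabetes model) sperm library. A peak is a stretch of DNA where sequenced reads (tags) are denser than around it. From each sperm list, autosomal peaks in the top 10% of the list by tags were kept when no peak of the other sperm list lay within 1000 bp. The top 10% began at 114 tags in control and 113 tags in T2D sperm, and peaks at or above these values are called high-tag here. The rule gave 2415 control-only peaks among 177342 peaks of the control sperm list and 2280 T2D-only peaks among 178584 of the T2D sperm list. Together they are 4695 of the 690963 peaks in the 4 lists of the series, and the directions are kept apart throughout. A peak of a single condition means that the other list has no call there, not that methylation was measured to differ. The sperm tags and the lack of a neighbour in the other sperm list chose these peaks, so their values in sperm are descriptions and carry no test.

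Methyl groups on cytosine, mostly at CpG sites, mark much of the mammalian genome, and in sperm most CpG sites outside CpG islands are methylated. After fertilisation most of this paternal methylation is erased and later rebuilt, which is why marks that differ in sperm are looked for again in tissues of the offspring. MeDIP-seq recovers sheared DNA with an antibody against 5-methylcytosine and sequences it, so a tag-rich peak reflects both how much of the DNA is methylated and how many CpG sites it holds. A wide peak also gathers more tags than a narrow one at equal density.

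The mice were ICR, an outbred strain. Male founders of the T2D group were fed HFD, a diet in which fat gave 33% of the energy, up to 12 weeks of age. They were then injected with a low dose of STZ (streptozotocin, a toxin of insulin-producing beta cells), stayed on this diet for 4 weeks, and counted as T2D at a fasting glucose of 7 to 11 mM. Control founders ate control diet, and all founders were mated at 16 weeks with females on standard diet. Sperm came from the caudal epididymis of 6 control and 6 T2D founders at 16 weeks, with a somatic cell lysis step. Islets, the hormone-secreting cell clusters of the pancreas, were taken at 3 weeks from the young of these males, 6 with a control and 6 with a T2D father. Diet and STZ were given together, so their parts cannot be told apart. How DNA of the 6 animals was combined is not stated in the labels. Each group had 1 library. No test over replicates was possible, no p-value is given, and intervals cover counting error only, as if tags and neighbouring peaks were independent, which PCR copies and adjoining peaks are not. The labelled tissues could not be checked against marker genes, since peak lists hold no expression and no annotation of their build was used.

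The sperm libraries were of nearly equal depth, with 31053754 unique tags in control and 31833988 in T2D. The depth of the islet libraries is unknown, so islet and sperm tag counts do not compare strength between tissues. The islet lists held 167712 peaks in control and 167325 in T2D, and any sperm peak that overlapped an islet peak by at least 1 bp was counted as present in that islet library.

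Of all autosomal sperm peaks, 26.6% of the control list and 27.2% of the T2D list had no peak of the other list within 1000 bp. Among high-tag peaks the share was 13.5% in control (2415 of 17840) and 12.8% in T2D (2280 of 17863). The ratio of T2D-only to control-only peaks was 0.944, given as a description of these lists. A further 50 control and 54 T2D high-tag peaks lay on other chromosomes, and 1 and 2 of them lacked a neighbour. At the tag threshold itself, 66 control-only peaks had 114 tags, and 52 peaks without a neighbour had 113 tags and were left out. In T2D, 38 peaks had 113 tags, and 62 without a neighbour had 112 and were left out. The distance threshold also fell within an even spread of gaps. In control, 41 high-tag peaks had their neighbour at 901 to 1000 bp and 42 within the next 100 bp, and in T2D 39 and 38.

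The high-tag peaks of a single condition were wide and had a low deposited enrichment. Ranking by tags favours wide peaks, so width is tied to the choice. Control-only peaks had a median of 147 tags (range 114 to 445) over a median width of 2203 bp, and T2D-only peaks 145.5 tags (113 to 802) over 2219 bp. High-tag peaks with a neighbour in the other list had nearly the same tags, with medians of 143 in control and 141 in T2D, but were narrower, with medians of 1941 bp and 1944 bp. All autosomal peaks had a median width of 991 bp in control and 982 bp in T2D. Tag density was lower, at medians of 71.9 tags per kb for control-only and 70.4 for T2D-only peaks, against 77.8 and 76.2 for high-tag peaks with a neighbour, but higher than the medians of 50.6 and 50.8 for all autosomal peaks. Fold enrichment over background, as deposited, had a median of 4.81 in control-only and 4.69 in T2D-only peaks, below the medians of 5.95 and 5.81 with a neighbour and of 6.77 and 6.74 for all autosomal peaks. The sperm calls had no control file and used a regional background over 5000 bp. The part of peak width in this enrichment was not tested.

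Many tags did not go with a high score in these peaks. The deposited score is the p-value of the call as its negative log10, times 10, and no autosomal sperm peak scores below 50. Its median was 75.02 in control-only and 72.61 in T2D-only peaks, against 125 and 120.4 in high-tag peaks with a neighbour. Of the control-only peaks, 64.8% (95% Wilson interval 62.9% to 66.7%) scored below the median of the whole control list, and of the T2D-only peaks 67.0% (65.0% to 68.9%) below that of the T2D list. With a neighbour the shares were 25.5% and 26.4%. Of 2415 control-only and 2280 T2D-only peaks, 64 and 59 were also in the top 10% of their list by score. Of 15425 and 15583 high-tag peaks with a neighbour, 4264 and 4152 were. Over the whole list this share is 10% by definition. In the plot of score against width, the peaks of a single condition lay more towards low scores and large widths. Even so, most high-tag peaks scoring 50 to 60, and most of 3000 bp or more, had a neighbour.

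**Figure D1:**
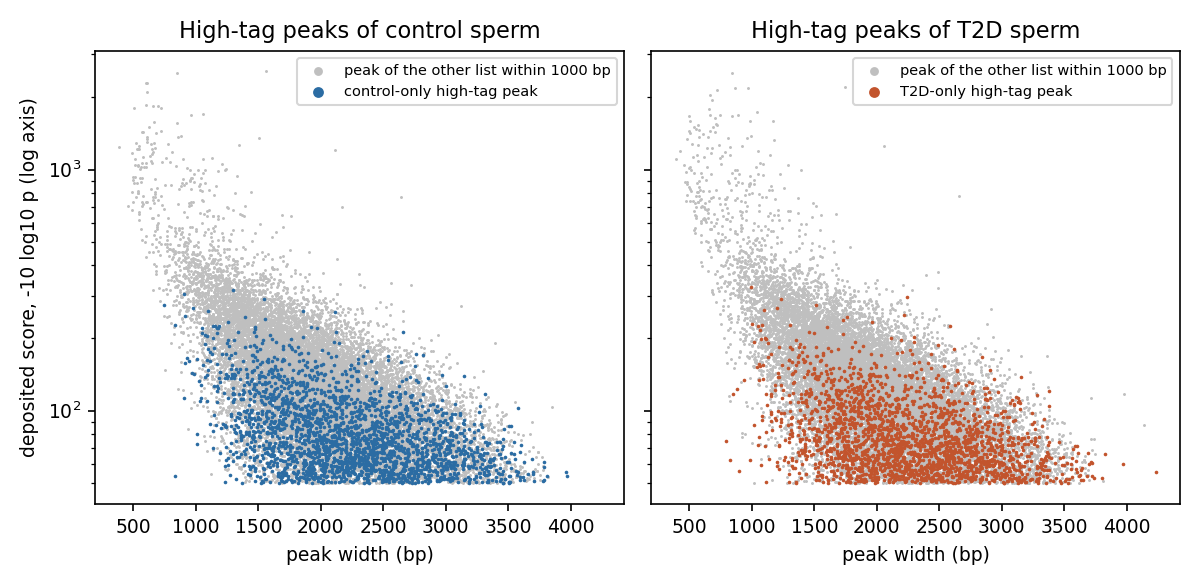
Deposited score (vertical, log axis) against peak width in bp (horizontal) for every autosomal high-tag peak of control sperm (left) and T2D sperm (right). Coloured points have no peak of the other sperm list within 1000 bp and grey points have one; the coloured points reach scores of 317.87 and 326.07, while grey points reach 2553.4 and 2503.44.

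Across 10 equal bins of autosomal peaks by tags, the share without a neighbour fell up to bin 9 and no further. In control it was 56.9% in bin 1, which has the fewest tags, 13.1% in bin 9 and 13.5% in bin 10, and in T2D 60.3%, 12.1% and 12.8%. Within high-tag peaks it rose with width. It was 7.43% below 1500 bp and 26.3% at 3000 bp or more in control, and 6.05% and 24.97% in T2D. It fell with score, from 35.2% of control high-tag peaks scoring 50 to 60 to 2.27% of those scoring 150 or more, and from 33.7% to 1.83% in T2D. In each of the 5 score bands drawn, high-tag peaks lacked a neighbour less often than peaks with fewer tags. Between 50 and 60 the peaks with fewer tags gave 47.8% in control and 49.1% in T2D, and at 150 or more 5.03% and 4.27%.

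**Figure D2:**
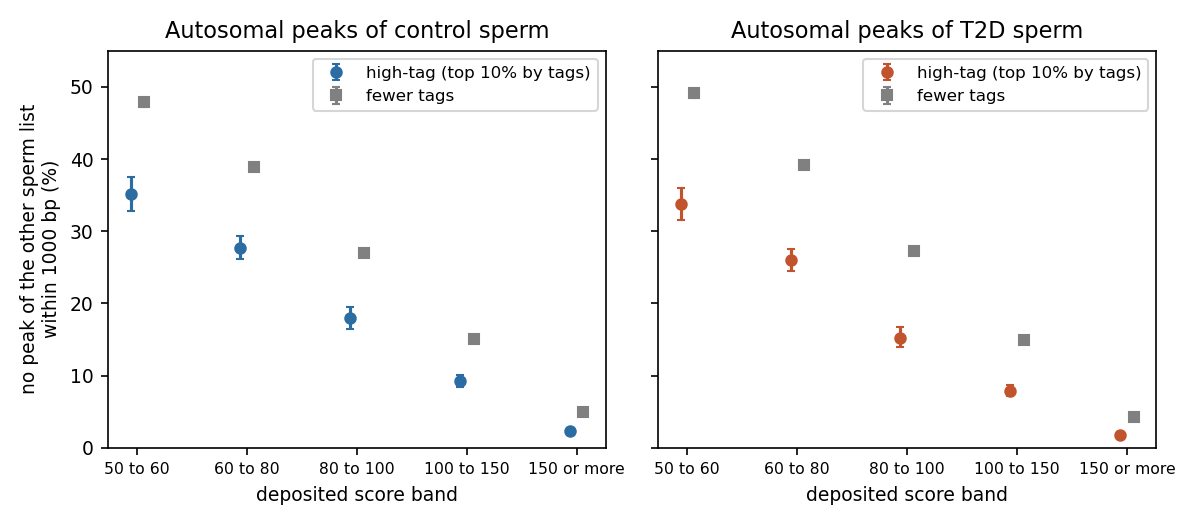
Share of autosomal sperm peaks with no peak of the other sperm list within 1000 bp (vertical, percent) by band of deposited score (horizontal), for high-tag peaks (circles) and peaks with fewer tags (squares), with 95% Wilson intervals. High-tag peaks lie below the others in all 5 bands of both libraries, and both fall as the score rises.

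The other sperm library usually had peaks nearby. The median gap from a control-only peak to the nearest T2D sperm peak was 3678 bp (quartiles 2281 bp and 5971 bp), and from a T2D-only peak to the nearest control sperm peak 3613 bp (2228 bp and 6039 bp). That nearest peak was itself high-tag for 608 control-only (25.2%) and 627 T2D-only peaks (27.5%). The share was 71.0% and 70.1% for high-tag peaks with a neighbour, and 9.75% and 9.44% for all autosomal peaks without one. Counting peaks whose centre lay within 10 kb of its edges, a control-only peak had a median of 2 further control sperm peaks and 2 T2D sperm peaks. Without the peak itself, the control list held a median of 160 tags there and the T2D list 147. Around T2D-only peaks both lists held a median of 153 tags. The rule leaves out close peaks of the other list, so these near-equal tags are tied to the choice. All autosomal peaks also had medians of 2 and 2 peaks, with 87 own and 135 other-list tags in control and 86 and 132 in T2D. With a neighbour, high-tag peaks had 142 and 282, and 140 and 283. The other list had no peak there for 9.90% of control-only and 9.21% of T2D-only peaks, against 5.39% and 5.79% of all autosomal peaks. A gap of more than 10 kb, measured from edge to edge, was found for 183 control-only (7.58%) and 162 T2D-only peaks (7.11%), and their median tags were 148 and 144.5. Such a gap was found for 4.97% of all autosomal control and 5.35% of all autosomal T2D sperm peaks, and for 18.7% and 19.6% of those without a neighbour.

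The most isolated peaks were singled out after their values were seen. The T2D-only peak at chr13:13231402-13234015 (mm9, as all positions here) held 131 tags, lay 103565 bp from any control sperm peak and 100640 bp from any other T2D sperm peak, and overlapped 2 control islet peaks and 1 T2D islet peak. In control, the farthest lay at chr7:16867605-16870334, with 144 tags, 25984 bp from a T2D sperm peak, and had no islet peak. The next, at chr1:187164329-187165900, held 140 tags at a score of 160.56 and had peaks of 96 and 120 tags in control and T2D islets.

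Among control-only peaks, the 10 with the most tags held 383 to 445. The first lay at chr14:55639883-55643463, was 3581 bp wide and held 445 tags at an enrichment of 3.83. The nearest T2D sperm peak, 3237 bp away, held 80 tags, and the islet libraries had peaks of 346 tags in control and 298 in T2D. The second, at chr10:110200260-110203402, held 438 tags and had a peak of 235 tags in control islets only. A further chromosome 14 peak, from 56116842 to 56120805, held 433 tags with a score of 55.75 and had no islet peak. The fourth, at chr10:127177849-127181820, was the widest autosomal peak of the control sperm list at 3972 bp, held 429 tags and overlapped islet peaks of 448 and 400 tags in control and T2D. Its nearest T2D sperm peak, 1211 bp away, held 110 tags. The others lay at chr2:77776296-77778146 (428 tags) and chr2:77744569-77746581 (390 tags), at chr19:26825372-26828722 (412 tags), at chr14:119065316-119068976 (388 tags), and at chr15:12824495-12828016 and chr15:58799679-58802904 (383 tags each). Their scores ran from 53.49 to 112.88, which left 6.2% to 68.7% of the control list below them.

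Among T2D-only peaks, 2 stood above the rest in tags. The first lay at chr2:76546730-76550962, was the widest autosomal peak of the T2D sperm list at 4233 bp and held 802 tags at an enrichment of 2.97 and a score of 55.64. A control sperm peak of 230 tags lay 1199 bp away and neither islet library had a peak. The second, at chr8:46035536-46039503, held 666 tags at an enrichment of 2.70 and also had no islet peak. The other 8 of the first 10 held 381 to 435 tags. They included chr8:116984594-116987970 (435 tags, islet peaks of 251 and 263 tags in control and T2D), chr8:46120569-46123448 (415 tags), chr8:46103899-46106538 (390 tags), and chr17:65018599-65022422 (401 tags). At chr6:125111171-125113412, a peak of 383 tags had a score of 295.11, higher than 98.9% of the T2D list, with islet peaks of 32 and 27 tags in control and T2D. Peaks at chr4:139160732-139164320 (397 tags), chr7:34996434-34999993 (385 tags) and chr3:135224725-135227983 (381 tags) completed them.

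The peaks of highest enrichment held fewer tags. In control they were led by chr9:103084957-103086770 (enrichment 10.66, 138 tags), chr2:179135723-179137920 (10.54, 156 tags) and chr1:173327394-173329090 (9.52, 148 tags), followed by chr7:35577955-35579403 (9.25, 116 tags) and chr12:100708778-100709911 (9.07, 139 tags). In T2D they were led by chr8:63840730-63842230 (10.97, 113 tags) and chr9:59963212-59964290 (10.39, 116 tags). Peaks at chr10:41216962-41218850 (9.43, 118 tags), chr13:98169488-98171010 (9.19, 121 tags) and chr1:184799756-184801061 (8.75, 131 tags) came next. All 10 had a peak in at least 1 islet library, 3 of 5 in both for control and 4 of 5 for T2D. Over all autosomal sperm peaks, the share in either islet library was 68.2% in control and 66.7% in T2D. The share in both was 43.3% and 41.8%. The scores of these 10 ran from 107.31 to 225.98. High-tag peaks with a neighbour were in either islet library for 92.35% and 91.5% at scores of 100 to 150. At 150 or more it was 93.1% and 92.2%.

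Whether the islets of offspring had a peak at these places was then counted, a measurement the choice of peaks did not use. An islet peak of either library was found at 73.8% of control-only peaks (1782 of 2415, 72.0% to 75.5%) and at 70.7% of T2D-only peaks (1612 of 2280, 68.8% to 72.5%). Set beside this, an islet peak was found at 68.2% of all autosomal control sperm peaks and 66.7% of all autosomal T2D sperm peaks. High-tag peaks with a neighbour in the other sperm list had an islet peak more often, at 89.8% and 88.9%, and all autosomal peaks without a neighbour less often, at 47.5% and 43.1%. Against high-tag peaks with a neighbour, the difference lay in regions called in both islet lists. These made up 42.8% of control-only and 37.1% of T2D-only peaks, against 72.9% and 71.6% with a neighbour. They made up 43.3% and 41.8% of all autosomal peaks, no less than in peaks of a single condition. Against all autosomal peaks, the higher presence lay in calls of a single islet list. Calls in control islets alone were found at 17.3% of control-only and 18.9% of T2D-only peaks, against 9.15% and 9.34% with a neighbour and 12.5% and 12.4% of all autosomal peaks. Calls in T2D islets alone were found at 13.7% and 14.7%, against 7.74% and 7.99% with a neighbour and 12.4% of all autosomal peaks in either list. The deposited score, which was lower in the peaks of a single condition, moved with these shares, and its part in them was not tested.

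Shares by width and score are given as descriptions, beside high-tag peaks with a neighbour only. All autosomal peaks were not split in this way. In most bands, peaks of a single condition had an islet peak less often than high-tag peaks with a neighbour. For widths of 2500 bp or more, 73.4% (70.2% to 76.4%) of control-only peaks had an islet peak against 88.0% (86.7% to 89.1%) of high-tag peaks with a neighbour, and in T2D 73.9% (70.7% to 76.8%) against 87.3% (86.0% to 88.5%). For scores of 50 to 60 the shares were 64.9% and 79.8% in control, and 64.4% and 76.9% in T2D. At scores of 150 or more the intervals met, with 95.5% (90.6% to 97.9%) against 93.1% (92.4% to 93.7%) in control and 89.0% (81.4% to 93.7%) against 92.2% (91.4% to 92.9%) in T2D. Presence in islets changed little with the gap to the other sperm list, from 73.2% of control-only peaks at up to 2000 bp to 76.5% above 10 kb, and from 74.2% to 69.8% of T2D-only peaks.

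**Figure D3:**
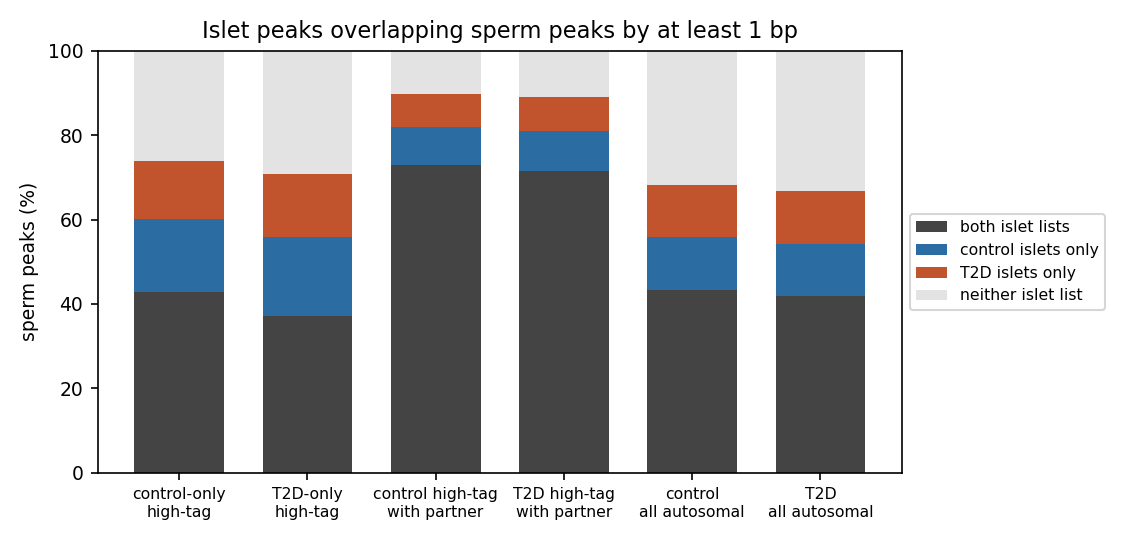
Share of sperm peaks (vertical, percent) that overlapped a peak in both islet libraries, in 1 of them or in neither, for the control-only and T2D-only high-tag peaks, high-tag peaks with a neighbour (partner) in the other sperm list, and all autosomal peaks. Peaks in neither islet list make up 26.2% and 29.3% of the first pair of bars, 10.2% and 11.1% of the second pair, and 31.8% and 33.3% of the last.

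The condition of the sperm call was then set beside that of the islet call. The rules differ between the tissues. A single condition in sperm means no peak of the other sperm list within 1000 bp. A single islet list means only that no peak of the other islet list overlapped the sperm peak. Among control-only sperm peaks found in a single islet list, 417 were in control and 331 in T2D islets. Among T2D-only sperm peaks, 431 were in control and 336 in T2D islets. Control islets were thus ahead in both, at 55.7% (52.2% to 59.3%) and 56.2% (52.7% to 59.7%). The same lean was present in high-tag peaks with a neighbour, at 54.2% and 53.9%, while all autosomal peaks gave 50.16% and 50.01%. Both directions together had 753 peaks on the same side in sperm and islets and 762 on opposite sides, or 49.7% (47.2% to 52.2%) on the same side. Of 14 alternatives, the top 5% by tags gave the lowest share, 46.5% (43.1% to 49.9%). Ranking by score gave the highest, 52.3% (46.3% to 58.2%). Counting an islet peak within 1000 bp as present gave 50.5% (48.1% to 53.0%). These intervals treat neighbouring peaks as independent and are no test of a link between sperm and islets.

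Where an islet peak was present it was often high-tag in its own list, which meant 88 tags or more in either islet library. At control-only sperm peaks this held for 53.3% of those with a control islet peak and 55.1% of those with a T2D islet peak. At T2D-only peaks it was 49.5% and 51.7%. High-tag sperm peaks with a neighbour gave values close to these, 49.3% and 51.5% in control and 47.0% and 48.9% in T2D. The share over all autosomal sperm peaks was not counted.

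Peaks with the same single condition in sperm and islets were led, in control, by the chromosome 10 peak from 110200260 and the chromosome 2 peak from 77744569. The islet peaks there held 235 and 35 tags. On chromosome 15 the peak from 58799679 overlapped 2 control islet peaks of 271 tags in all, and that from 58817333 to 58820048 (367 tags) overlapped a control islet peak of 245 tags. A peak at chr5:102311202-102314498 (367 tags) overlapped a control islet peak of 221 tags. In T2D they were led by the chromosome 7 peak from 34996434, with a T2D islet peak of 233 tags. It was followed by chr5:64674459-64677704 (349 tags, 143 in T2D islets), chr5:116429049-116432650 (343 tags, 290 in T2D islets), chr16:94425729-94428717 (319 tags, 182 in T2D islets) and chr15:100772104-100775182 (319 tags, 199 in T2D islets).

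Opposite single conditions gave values of similar size. Control-only sperm peaks with a T2D islet peak alone were led by the chromosome 2 peak from 77776296 (30 islet tags), chr19:55987740-55990514 (342 tags, 178 in T2D islets) and chr17:27253599-27257028 (340 tags, 260 in T2D islets). A control islet peak of 25 tags, from 77778538 to 77778975, lay within 1000 bp of the chromosome 2 peak without overlapping it. T2D-only sperm peaks with a control islet peak alone were led by the chromosome 4 peak from 139160732 (176 islet tags), the chromosome 3 peak from 135224725 (238 islet tags) and chr2:77754087-77756866 (344 tags, 30 in control islets).

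Peaks of a single condition had a neighbour of the opposite direction about as often as one of their own. Another control-only peak lay within 100 kb of 49.4% of control-only peaks (47.4% to 51.4%), and a T2D-only peak within 100 kb of 47.4% (45.4% to 49.4%). Of the T2D-only peaks, 47.2% (45.2% to 49.2%) had another T2D-only peak and 49.96% (47.9% to 52.0%) a control-only peak within 100 kb. The median gap to the nearest peak of the same direction was 102205 bp in control and 109036 bp in T2D, and to the nearest of the opposite direction 110866 bp and 100135 bp. No such peak lay within 100 kb in either direction for 31.0% and 31.4%. These shares and gaps, and the clusters below, were not counted for other high-tag peaks. They do not show whether such closeness is particular to peaks of a single condition. At short range the same direction was ahead, with a like peak within 5000 bp of 185 control-only and 146 T2D-only peaks and an opposite one for 105 and 103, but the rule itself keeps opposite peaks more than 1000 bp apart.

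**Figure D4:**
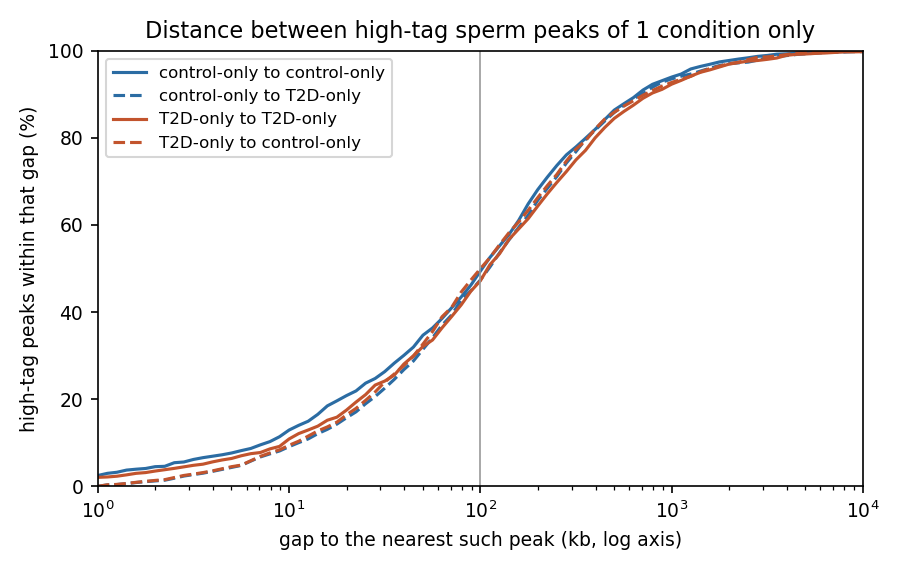
Share of control-only (blue) and T2D-only (orange) high-tag sperm peaks (vertical, percent) whose nearest peak of the same direction (solid) or of the opposite direction (dashed) lies within a given gap (horizontal, kb, log axis). The curves run close together and cross 100 kb, marked by the grey line, between 47.2% and 49.96%.

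Linking peaks of the same direction at gaps of up to 100 kb gave 456 clusters of 2 or more in control and 420 in T2D, of which 33 and 25 held 5 or more. The largest T2D-only cluster, of 8 peaks, spanned 177 kb of chr5:116255898-116432650, where the T2D list had 17 peaks and the control list 13. The control list also had 5 control-only peaks inside it. A peak from 116300625 was shared, with 149 tags in T2D and 145 in control. Then came control-only peaks from 116303803 to 116306074 (192 tags) and from 116313393 to 116315945 (216 tags), a T2D-only peak from 116318706 to 116319861 (124 tags), and control-only peaks from 116321208 to 116323016 (183 tags) and from 116323221 to 116324941 (203 tags). T2D-only peaks followed from 116327110 to 116330626 (321 tags) and from 116334286 to 116337523 (283 tags), and then a control-only peak from 116360552 to 116362060 (177 tags). A shared peak from 116367924 held 161 tags in T2D and 151 in control. Beyond it lay 4 T2D-only peaks of 314, 123, 231 and 343 tags, with no control sperm peak among them. Of the 8 T2D-only peaks of this cluster, 2 overlapped peaks of both islet libraries, 1 of control and 1 of T2D islets only, and 4 of neither.

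The largest control-only clusters held 11 peaks each. At chr8:117006659-117366257 (360 kb) the control-only peaks had 126 to 316 tags, 4 T2D-only peaks lay inside, and the control and T2D lists had 39 and 37 peaks. Of the 11, 4 overlapped peaks of both islet libraries, 2 of control and 1 of T2D islets only, and 4 of neither. At chr19:56380930-56806027 (425 kb) they had 114 to 308 tags, 3 T2D-only peaks lay inside, and the lists had 63 and 54 peaks. None of these 11 overlapped peaks of both islet libraries, 4 overlapped control and 3 T2D islets only, and 4 neither. In a control-only cluster at chr4:148106625-148308606, chosen after its values were seen, 6 of 6 peaks had no islet peak. This held for 26.2% of control-only and 31.8% of all autosomal control sperm peaks. In a T2D-only cluster at chr1:34207665-34381672, chosen in the same way, 6 of 6 had peaks in both islet libraries. This held for 37.1% of T2D-only and 41.8% of all autosomal T2D sperm peaks. Both are extremes among the clusters and describe no general trait.

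A pair of tag-rich places were looked at peak by peak after their values were seen, since several of the peaks with the most tags lay there. On chromosome 2 the control-only peaks from 77744569 (390 tags) and from 77776296 (428 tags) lay on either side of the T2D-only peak from 77754087 (344 tags, enrichment 8.17). Between this peak and the one from 77776296, a shared peak held 233 tags in control and 149 in T2D sperm. On chromosome 8 the T2D-only peak of 666 tags from 46035536 lay 2546 bp from a control-only peak, from 46042050 to 46044191, with 200 tags. The T2D-only peak of 415 tags from 46120569 lay 1166 bp from a shared peak, which held 634 control tags and 593 T2D tags.

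Every autosome held peaks of both directions. Control-only peaks made up between 10.2% of the high-tag peaks on chromosome 13 and 16.7% on chromosome 19, and T2D-only peaks between 8.79% on chromosome 6 and 16.3% on chromosome 4. The ratio of T2D-only to control-only peaks was lowest on chromosome 19, at 0.667 (70 and 105 peaks), followed by chromosome 7, at 0.702 (85 and 121). It was highest on chromosome 4, at 1.25 (214 and 171). In numbers of peaks, the lead of control was largest on chromosome 5, with 210 control-only and 173 T2D-only peaks. These counts come from the choice of peaks and are descriptions of 1 library a side.

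**Figure D5:**
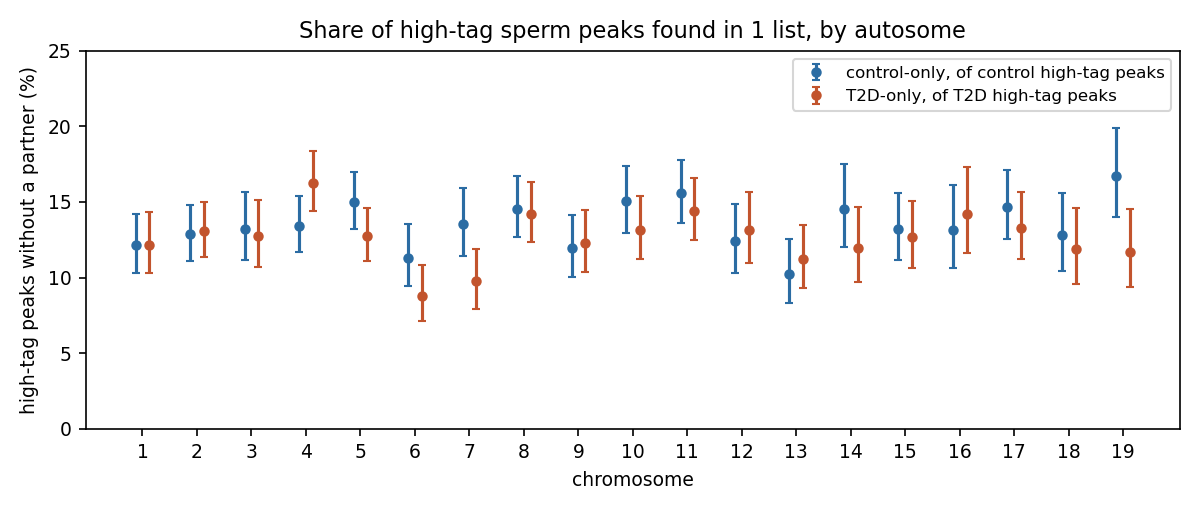
Share of high-tag peaks of control sperm that are control-only (blue) and of T2D sperm that are T2D-only (orange), in percent, on each of the 19 autosomes, with 95% Wilson intervals. Chromosome 19 shows the widest separation towards control (16.7% against 11.7%) and chromosome 4 lies higher for T2D (16.3% against 13.4%).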

How the data were processed

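The authors deposited 1 MeDIP-seq peak list per library, with positions on mouse build mm9, per the submitters' processing notes, which also name CASAVA 1.4. Per the file headers, MACS called both sperm lists with no control file and a p-value cutoff of 1.00e-05, with 49 bp tags, a regional background over 5000 bp and at most 2 tags kept per position. For the islet lists, neither caller nor settings are stated in the sources used here. Each deposited list gives whole-number counts of tags per peak, a score (10 times the negative log10 of the p-value) and a fold enrichment ratio, which are the authors' own values and were used within a list. Counts were not scaled to depth.

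The top 10% by tags was taken over each whole sperm list with ties kept. A gap is the number of bases between peaks. Clusters linked peaks of a direction at gaps of up to 100 kb. Shares have 95% Wilson intervals; an exact binomial interval (scipy 1.17.1) served only to judge whether the ratio of counts moved under an alternative. Member and islet counts were checked with bedtools 2.31.1. On simulated lists, 200 of 200 planted peaks were recovered in either direction. There the other list was a copy with peaks deleted by the same distance rule, so this checks the code and not the counts. Regions were named by rule: in each direction the 10 with the most tags, the 5 of highest enrichment, the 5 and 3 with the most tags whose only islet peak was of the same and of the opposite condition, and the largest clusters. The members, rule and lists were chosen with earlier results of these data known. Alternatives changed the share of the list, ties, the gap, the ranking value, the islet overlap and the cluster distance. Genes and sequence were not analysed here, since no genome or annotation of mm9 was used.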

Additional observations from a re-analysis of the deposited data

How the results depend on the processing

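No paired analysis was possible because each group had 1 library and the labels carry no replicate numbers, so leaving out a replicate was not run either. Of 123 alternative values, 60 stayed within the interval of the reported value, or within 1.5 times it for a count, and 63 did not. Values are given in the order control, T2D.

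The numbers of peaks (2415, 2280) became 1307, 1241 in the top 5% by tags, 4817, 4437 in the top 20%, 808, 760 with a gap over 5000 bp and 497, 453 ranked by score. The share with an islet peak (73.8%, 70.7%) was 76.4%, 72.9% in the top 5%, 70.2%, 66.6% in the top 20%, 70.6%, 65.6% ranked by tags per kb, 80.1%, 77.9% with an islet peak within 1000 bp, 57.8%, 53.0% where it covered 50% of the sperm peak and 40.4%, 35.5% against the best 50% of each islet list. Ranked by score it was 76.9% in control. The share on the same side in both tissues (49.7%) was 46.5% (43.1% to 49.9%) in the top 5% and 52.3% (46.3% to 58.2%) ranked by score. These intervals cover counting error only and are no test.

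Median width (2203 bp, 2219 bp) was 2499 bp, 2528 bp in the top 5%, 1857 bp, 1874 bp in the top 20%, 2144 bp, 2163 bp with a gap over 5000 bp, 1057 bp, 1027 bp ranked by tags per kb and 739 bp, 704 bp ranked by score. The share with a peak of the same direction within 100 kb (49.4%, 47.2%) was 38.6%, 35.4% in the top 5%, 66.1%, 62.2% in the top 20%, 53.7%, 51.5% where only overlapping peaks counted as neighbours, and 53.0%, 50.1%, 45.1%, 42.2%, 26.9% and 29.1% with gaps over 500, 2000 and 5000 bp. It was 40.3%, 36.3% ranked by tags per kb, 5.43%, 3.53% ranked by score, 34.6%, 32.0% at 50 kb and 86.3%, 84.5% at 500 kb.

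Keeping only peaks in the best 50% of their list by score, an alternative chosen after seeing the data, left 849, 753 peaks, a ratio of 0.887, islet shares of 83.4%, 79.8%, 46.9% on the same side, median widths of 1884 bp, 1938 bp and 20.4%, 22.3% with a like peak within 100 kb. A missing call is not a measured lack of methylation, and the tags of the other library at these places are not in its peak list. Islet depth is unknown, so a missing islet peak cannot be set against a detection limit.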
